A study of Mus musculus with 12 samples.

Results

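Type B spermatogonia, the last mitotic germ cells of the mouse testis before meiosis, were compared with pachytene spermatocytes, the cells of meiotic prophase in which homologous chromosomes are fully paired. The comparison rested on 6 of the 12 arrays of the series, 1 type B and 1 pachytene array on each of the 3 Affymetrix designs U74Av2, U74Bv2 and U74Cv2, and took in all 36701 non-control probe sets, which named 15964 genes. The remaining 6 arrays held type A spermatogonia and round spermatids. Each hybridisation used total RNA of 1 isolated germ cell type with one-cycle labelling, and the labels call every sample a singlet. Strain, genotype, age, the way the cells were isolated and the number of animals are not given in the sources used here, and no treatment is named. With 1 array a side on each design there is no spread between cell preparations, so no ratio below has a test, an SD or an n above 1.

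As background, a type B spermatogonium divides into preleptotene spermatocytes, which replicate their DNA a last time under Stra8 and enter prophase. Programmed breaks made by Spo11 are then repaired from the homologous chromosome while the synaptonemal complex holds the pair together. In pachytene the factor A-MYB, encoded by Mybl1, drives a large germ cell program, many messages for the later sperm are made and stored, and the largely unpaired X and Y chromosomes are silenced, a process called meiotic sex chromosome inactivation.

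Values below are MAS5 signals, a brightness per probe set in arbitrary units, rescaled within a design so that the 4 arrays share a trimmed mean near 125. Signals under a floor of 50 were set to 50, and a ratio against such a gene is only a bound, written as "at least". Higher or lower names a size of ratio, 2-fold for gene lists and 4-fold for the counts of single genes, and never a test. Over the floor were 56.7% of probe sets in type B and 47.8% in pachytene. Control transcripts that all 3 designs carry, spike-in controls among them, gave an SD of 0.23 between designs in the log2 ratio. It covers the spread of these controls between designs only, and no spread between cell preparations. Probe sets of 1 gene disagreed by more than 2-fold in 35.3% of 10247 pairs. The ratio of the 3′ to the 5′ probe set of beta-actin, a sign of RNA integrity and labelling length, was 2.41 to 2.49 on the type B arrays and 1.48 to 1.77 on the pachytene arrays, so it moved with cell type in every design, and its part in the results was not tested.

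The 3 markers of the pachytene label were all high on the pachytene arrays against type B. Ldhc, the lactate dehydrogenase of germ cells, gave a signal of 1.7 in type B and 8691 in pachytene. Tdrd6, a tudor-domain component of the chromatoid body, gave 67.4 and 9996. Mybl1 gave 257 and 1103. All 3 were thus higher in pachytene, by at least 174-fold, by 148-fold and by 4.29-fold, and both probe sets of Mybl1 gave log2 ratios of 2.10 to 2.23. Tdrd6 in type B lay under the brightest negative control of its array, 103.5, so its fold rests on a background signal. The round spermatid arrays gave 10651 for Ldhc, 4819 for Tdrd6 and 194 for Mybl1, so Ldhc and Tdrd6 do not set pachytene apart from the next stage.

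Markers of the type B label went the other way. Dmrt1, a transcription factor of spermatogonia that holds back meiosis, gave 659 in type B and 61.2 in pachytene. Stra8, the gatekeeper of meiotic entry, gave 493 in type B and 17.2 in pachytene, and Kit, the receptor of differentiating spermatogonia, 202 and 40.6. Of the 5 type B markers on the arrays 4 were at least 2-fold lower in pachytene and Ccnd2 was at the floor in both. The type A arrays gave 1195 for Dmrt1, 482 for Stra8 and 385 for Kit, so these genes were not restricted to the type B label.

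Round spermatid markers were present on the pachytene arrays at a low level. Their summed signal over 9 genes was 383 in type B, 3583 in pachytene and 50877 in round spermatids. Prm1, the protamine that packs sperm DNA, gave 5.7, 1321 and 14320 in that order on 1 of 2 probe sets, and Tnp2, a transition protein, 34.7, 492 and 10430. The acrosomal gene Acrv1 stayed at the floor in pachytene with 46.5 against 1168 in round spermatids, and Akap4 of the fibrous sheath gave 91.2 against 2631. In bulk RNA more cells of a type and more RNA per cell cannot be told apart, so whether these signals come from spermatocytes or from spermatids in the fraction was not tested.

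Markers of somatic testis cells were clearly above the floor in type B. Matrix and fibroblast genes were over the floor for 34 of 36 members in type B and 17 of 36 in pachytene, and their summed signal was 28742 and 3227. Their defining member Dcn, a proteoglycan of connective tissue, gave 2783 and 55.7, and Col1a1, a chain of collagen I, 2054 and 4.8. Smooth muscle genes of peritubular cells, all 12 of them over the floor in type B, summed to 6911 and 1382, with Acta2 at 2196 and 243. Sertoli markers summed to 20672 and 14273 over 25 genes, with Clu at 2190 and 1717 and Amh at the floor in both. The brightest member on both sides was Amhr2, with 8490.6 in type B and 7359.9 in pachytene, a large part of both sums. Its other probe sets were far dimmer, with 1033.3 and 1119.0, 234.5 and 101.1, and 71.2 and 64.7. Leydig markers summed to 3831 and 3044 over 13 genes, with Cyp17a1 at 254 and 367. Macrophage markers summed to 2583 and 782 over 19 genes, with Ptprc and Adgre1 at the floor in both, and endothelial and red cell markers to 2241 and 665 over 14 genes. The part of these cells in the genes that were lower in pachytene was not tested.

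With the floor in place and all 3 designs together, more genes passed 4-fold upwards than downwards in pachytene, and this order turned without a floor and on U74Av2 alone. Among 15964 genes, 970 (6.08%) passed 4-fold upwards in pachytene and 668 (4.18%) passed it downwards. At 2-fold the order turned, with 2105 genes (13.2%) higher and 2854 (17.9%) lower, and at 8-fold 479 genes (3.0%) were higher and 138 (0.864%) lower. The median log2 ratio over the 12281 genes above the floor in either cell type was −0.28, with quartiles of −0.94 and 0.51. Of all 4-fold differences 59.2% were increases, and this share was 80.7% with arrays scaled on their median and 86.4% with scaling on spike-in controls. Without a floor the share was 42.1%, with 1310 genes higher and 1798 lower, and on U74Av2 alone it was 48.8%, with 331 and 347. Counted by probe set, 1438 of 36701 (3.92%) lay over this limit in pachytene and 984 (2.68%) under it.

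**Figure D1:**
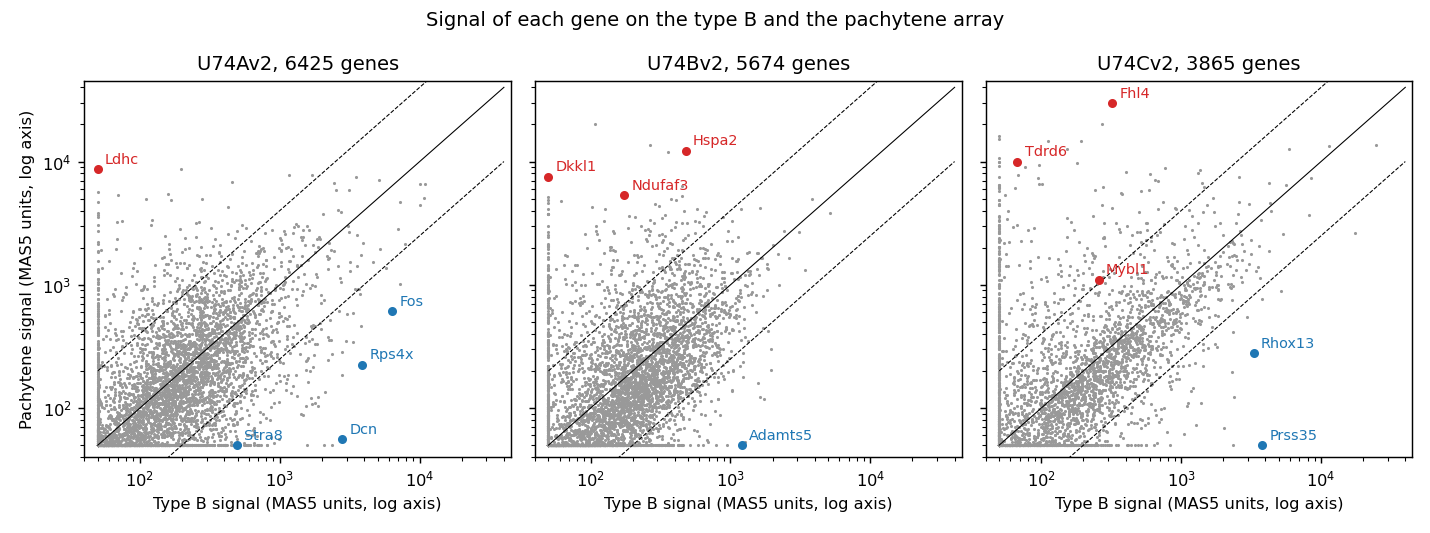
Signal of each named gene on the type B array (x axis) and the pachytene array (y axis), in MAS5 units on log axes, for the genes represented on each of the 3 designs; signals under the floor of 50 are drawn at it, the solid line marks equal signal and the dashed lines a 4-fold ratio. Points over the upper dashed line belong to the 970 genes at least 4-fold higher in pachytene, with Ldhc and Dkkl1 on the floor of type B, and points under the lower one to the 668 genes at least 4-fold lower, such as Dcn, Fos and Rps4x.

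Of the 970 higher genes 353 were at the floor in type B and have lower bounds only. Of the remaining 617 the type B signal of 102 lay under the brightest negative control of its array. Other probe sets gave a mixed picture: of 397 higher genes with at least 2 probe sets above the floor, every probe set passed 2-fold upwards for 183, and 1 or more went the other way for 121. Genes without a proper name, such as Riken clones, made up 10.1% of the higher, 1.35% of the lower and 7.37% of all genes.

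The largest ratios belonged to genes with little or no signal in type B. Pebp4, of the phosphatidylethanolamine-binding family, gave 38.1 in type B and 16174 in pachytene, at least 323-fold higher. Ldhal6b, an intronless relative of lactate dehydrogenase, gave 15.2 and 15380, at least 307-fold. Qrich2, a protein of the sperm tail, gave 35.5 and 9208, at least 184-fold. None of these 3 passed the floor of 50 in type B, and each rests on a single probe set. Among genes above the floor in both, Rbakdn led with 107 and 20309, or 189-fold, followed by Tdrd6 and by Zpbp2, a zona pellucida binding protein of the acrosome, with 112 and 14729, or 132-fold.

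Several increases were borne out by more than 1 probe set. The gene 1700029M20Rik gave 47.3 and 7485, at least 150-fold higher, with log2 ratios of 6.80 and 7.23 from its 2 probe sets. Fhl4, a LIM-domain cofactor, gave 320 and 29895, or 93.5-fold, with 6.55 and 7.07. Marchf11, a membrane ubiquitin ligase, gave 153 and 12583, or 82.0-fold, with 6.36 and 7.48. The type B signal of Plaat5 lay under the brightest negative control. Plaat5, a phospholipase and acyltransferase, Acyp1, an acylphosphatase, and Dnaaf1, an assembly factor of ciliary dyneins, belonged to the same group at 114-fold, 44.9-fold and 54.2-fold. In all, 84 of 7645 genes with several probe sets passed 4-fold upwards on every one of them, and 21 did so downwards.

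Among 46 transcription regulators of germ cells, 19 passed 2-fold upwards in pachytene and 7 downwards, where all genes stood at 13.2% and 17.9%. The 2-fold counts of every list below are to be read against these shares. Gtf2a1l, the testis form of the large TFIIA subunit, gave 31.6 in type B and 6464 in pachytene, at least 129-fold higher. Brdt, the bromodomain reader of acetylated histones in germ cells, gave 40.9 and 3295, at least 65.9-fold, and Rfx2, a winged-helix factor that binds the X-box of ciliary genes, 44.7 and 951, a log2 ratio of at least 4.25. All 3 were at the floor in type B.

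Other regulators were already present before meiosis. Tcfl5, a basic helix-loop-helix factor, gave 597 and 7977, or 13.4-fold, with log2 ratios of 3.48 and 3.74 from its probe sets. Tbpl1, the TBP-like factor of spermatogenesis, gave 73.2 and 1238, or 16.9-fold. Egr1, an immediate early zinc finger, went the other way with 2768 and 186, or 14.9-fold lower, and Sp3, a general GC-box factor, with 297 and 72.6, or 4.09-fold lower. The list median was a log2 ratio of 0.38, against −0.28 for all genes above the floor.

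Because Mybl1 and Rfx2 themselves were higher, the letters their families bind were counted in RefSeq promoter windows of the mouse assembly GRCm38.p6, 250 bases before to 50 after each annotated start. MYB-type motifs were read as CAACNG or TAACNG, the X-box as GTNNCC followed, after any 3 bases, by GNAAC, and the full CRE as TGACGTCA, all on both strands. CAACNG can also overlap an E-box (CANNTG) and the X-box, as in Kif9. Of the 970 higher genes 799 had a window, and a gene can have several. The windows below were chosen, with their values known, to show strong MYB-type, X-box and CRE matches beside genes that were higher in pachytene. Only the 250 bases before the start are printed, 5′ to 3′ on the gene's own strand, with matches in capitals. Ldhc lies on chr7:46861013-46861262 (plus strand), Tcfl5 on chr2:180642692-180642941 (minus), Spag6l on chr16:16829364-16829613 (minus), Kif9 on chr9:110476744-110476993 (plus), Pifo on chr3:106001498-106001747 (minus) and Ldha on chr7:46845554-46845803 (plus).
Ldhc: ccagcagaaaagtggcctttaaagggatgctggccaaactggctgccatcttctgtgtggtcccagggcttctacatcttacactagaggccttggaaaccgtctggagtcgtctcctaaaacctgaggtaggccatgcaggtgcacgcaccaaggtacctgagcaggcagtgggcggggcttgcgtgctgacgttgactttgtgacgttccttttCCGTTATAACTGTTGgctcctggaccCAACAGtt
Tcfl5: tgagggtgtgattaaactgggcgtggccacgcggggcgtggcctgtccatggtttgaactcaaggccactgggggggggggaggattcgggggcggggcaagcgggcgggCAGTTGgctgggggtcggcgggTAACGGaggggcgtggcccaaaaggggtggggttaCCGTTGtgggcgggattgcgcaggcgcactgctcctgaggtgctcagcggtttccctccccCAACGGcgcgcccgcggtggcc
Spag6l: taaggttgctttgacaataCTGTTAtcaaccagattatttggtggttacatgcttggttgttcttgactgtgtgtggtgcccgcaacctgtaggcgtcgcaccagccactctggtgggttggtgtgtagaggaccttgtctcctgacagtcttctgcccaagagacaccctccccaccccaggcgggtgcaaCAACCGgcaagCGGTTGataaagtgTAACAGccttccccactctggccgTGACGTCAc
Kif9: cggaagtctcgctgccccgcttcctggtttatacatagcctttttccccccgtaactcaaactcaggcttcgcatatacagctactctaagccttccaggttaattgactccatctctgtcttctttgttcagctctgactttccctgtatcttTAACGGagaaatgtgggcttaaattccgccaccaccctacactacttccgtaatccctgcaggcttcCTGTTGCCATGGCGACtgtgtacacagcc
Pifo: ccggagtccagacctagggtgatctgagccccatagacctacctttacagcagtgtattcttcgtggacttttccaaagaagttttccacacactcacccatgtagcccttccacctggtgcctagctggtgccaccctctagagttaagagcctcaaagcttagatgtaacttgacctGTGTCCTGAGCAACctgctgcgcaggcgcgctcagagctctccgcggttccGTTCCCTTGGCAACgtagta
Ldha: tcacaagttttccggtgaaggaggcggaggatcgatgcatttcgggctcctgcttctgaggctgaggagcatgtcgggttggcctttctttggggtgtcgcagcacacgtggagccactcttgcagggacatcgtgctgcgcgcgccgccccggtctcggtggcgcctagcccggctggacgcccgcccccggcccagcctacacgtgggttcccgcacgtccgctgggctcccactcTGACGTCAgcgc

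In the Ldhc window MYB-type letters began 34, 28, 25 and 8 bases before the start, and in that of Tcfl5 140, 118, 83 and 22 bases before it. Spag6l, a central-pair protein of the axoneme with 96.4 in type B and 6609 in pachytene, held 4 MYB-type matches and a CRE 9 bases before the start. Kif9, a kinesin of the sperm tail, gave 4.5 and 1121 and held an X-box 27 bases before the start. Pifo, a ciliary gene chosen after its values were seen, with 3.5 and 979, held 2 X-boxes, 71 and 20 bases before it. Ldha, the muscle form of lactate dehydrogenase with 425 and 4316, held a CRE 12 bases before the start and no MYB-type letters in that window. These are matches of letters, and no binding was measured.

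Over all windows the MYB-type letters were more frequent beside higher genes. They occurred in 614 of 1029 windows (59.7%) of genes at least 4-fold higher, in 159 of 230 (69.1%) of genes at least 16-fold higher and in 278 of 704 (39.5%) of genes at least 4-fold lower. All named genes stood at 46.2% of 16015 windows, and all 32851 windows of the table at 49.7%. X-box letters occurred in 5.25%, 7.39%, 0.994% and 2.51% of the windows of the first 4 groups in that order, and in 2.17% of the whole table. The full CRE occurred in 2.72% of windows of 4-fold higher genes, 3.27% of 4-fold lower genes and 2.52% of all named genes. The median GC content was 59.0% beside 4-fold higher genes and beside all named genes, 57.0% beside genes at least 16-fold higher and 62.3% beside lower genes, and its part in these shares was not tested.

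**Figure D2:**
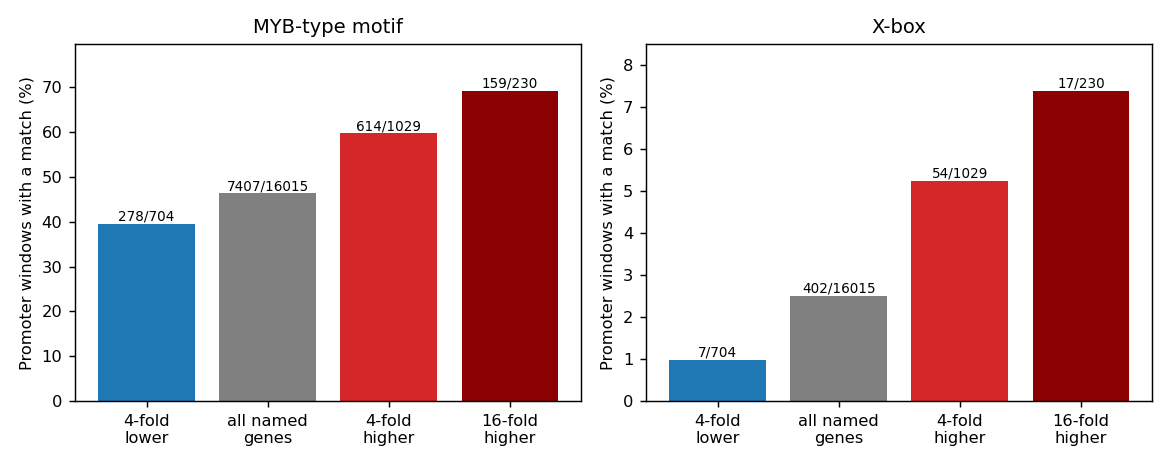
Share of RefSeq promoter windows (y axis, percent) with at least 1 MYB-type match (left) or X-box match (right), for genes at least 4-fold lower, all named genes, genes at least 4-fold higher and genes at least 16-fold higher in pachytene; the numbers over the bars give windows with a match of all windows. The MYB-type share goes from 39.5% beside lower genes to 69.1% beside genes at least 16-fold higher, and the X-box share from 0.994% to 7.39%.

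Genes of the meiotic chromosome did not move as a block. From 33 recombination genes on the arrays, 7 passed 2-fold upwards and 7 downwards, and their median log2 ratio of −0.15 turned to 0.57 with spike-in scaling and 0.46 with median scaling. Psmc3ip, the HOP2 partner of the meiotic recombinases, gave 56.2 in type B and 568 in pachytene, or 10.1-fold higher. Spo11, the enzyme that makes meiotic breaks, gave 679 and 4109, or 6.05-fold, and Mdc1, which spreads the damage signal along chromatin, 401 and 1529, or 3.81-fold. Spo11 was therefore well above the floor on the type B array too.

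Other repair genes were lower. Chek1, a checkpoint kinase, gave 205 and 56.3, or 3.65-fold lower, and Atm, the kinase that senses breaks, gave 199 and 7.9, at least 3.99-fold lower. Trip13, a remodeller of chromosome axes, gave 142 and 37.0. The meiotic recombinase Dmc1 gave 106 and 17.9, so it was at the floor in pachytene and at least 2.11-fold lower; it was chosen after its values were seen.

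Cohesin and synapsis genes divided as well. With 22 members on the arrays, 4 passed 2-fold upwards and 7 downwards, and the median of −0.35 turned to 0.30 with spike-in scaling and 0.12 with median scaling. Syce1, a central element of the synaptonemal complex, gave 1420 and 6753, or 4.76-fold higher, and Stag3, the meiotic cohesin subunit, 5855 and 12714, or 2.17-fold. Larger increases were those of Meig1, which is also in the sperm tail list, and Nipbl, with log2 ratios or bounds of 4.35 and 2.68. Syce2, another central element protein, went the other way with 292 and 57.4, or 5.09-fold lower, and Rec8, the meiotic kleisin, gave 979 and 443, or 2.21-fold lower. Several cohesin subunits that are not restricted to meiosis lay among the lower ones, while Stag1 did not pass 2-fold, with a log2 ratio of −0.70. Rad21 gave 825 and 182, Smc3 215 and 24.5, and X-linked Smc1a 404 and 109. Esco2, the acetyltransferase that locks cohesin in S phase, gave 574 and 65.1, or 8.82-fold lower. Sycp1 and Sycp3, axis and filament proteins by which pachytene is usually recognised, gave no 2-fold call on these probe sets. Sycp1 gave 319 and 220. Sycp3 gave 16.7, under the floor, and 60.4, which leaves its ratio as a bound of at least 1.21-fold. Rec8, Sycp1 and Sycp3 were chosen after their values were seen.

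DNA replication genes were mostly level or lower. Of the 49 on the arrays, 16 passed 2-fold downwards in pachytene and 6 upwards, and the median of −0.58 turned to 0.12 with spike-in scaling. Mcm2, a subunit of the replicative helicase, gave 406 in type B and 50.2 in pachytene, or 8.08-fold lower, and Mcm4 gave 303 and 56.0, or 5.41-fold lower. Both probe sets of Mcm3 were lower, at −2.10 and −1.95. Orc6 of the origin complex gave 332 and 73.6, and Orc1 had a log2 ratio of −1.50. Orc2, Orc3 and Orc5 of the same complex went the other way, at 1.26, 1.29 and 1.68, and Orc4 gave −0.75. Rnaseh2a, a subunit of ribonuclease H2, also went against the list with 103 and 911, or 8.81-fold higher.

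Cyclins, their kinases and inhibitors numbered 45, of which 14 passed 2-fold downwards and 6 upwards; their median of −0.51 turned to 0.19 with spike-in scaling. Ccna1, the cyclin A of meiosis, gave 2.2 and 405, at least 8.09-fold higher, and the inhibitors Cdkn2d and Cdkn2c gave 112 and 701 (6.28-fold) and 189 and 942 (4.99-fold). The paired kinase subunits Cks1b and Cks2 went opposite ways, Cks1b with 382 and 59.1 (6.46-fold lower) and Cks2 with 475 and 2387 (5.03-fold higher). Ccnd3, a G1 cyclin, gave 296 and 17.1, at least 5.92-fold lower on 1 probe set and −0.85 in log2 on its other. Spindle and division genes had more increases, 12 of 53 higher and 5 lower. Mad2l2, a checkpoint protein, gave 463 and 4001 (8.64-fold), and the kinases Aurka and Nek2 gave 126 and 1068 (8.47-fold) and 192 and 1502 (7.81-fold). Kif23, a kinesin of cell separation, gave 350 and 86.2, or 4.06-fold lower.

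**Figure D3:**
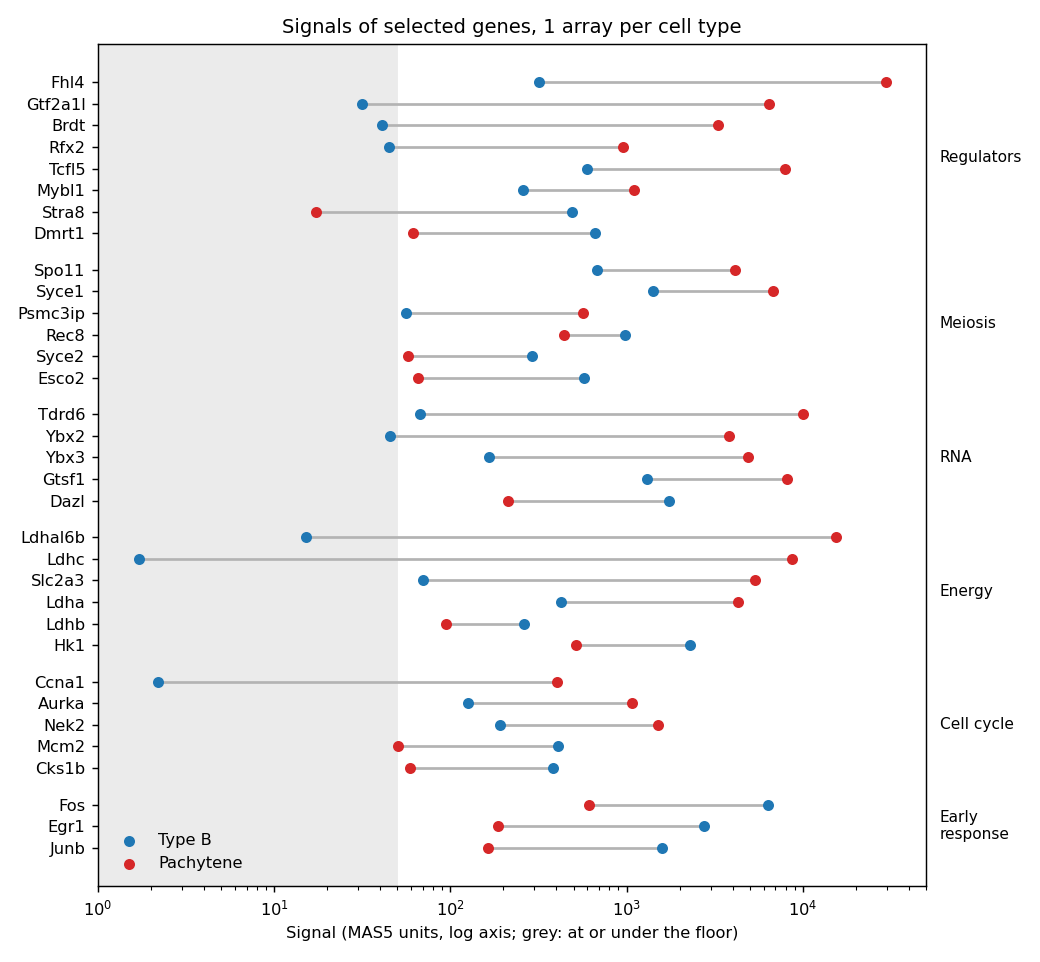
MAS5 signals (x axis, log scale, 1 array per cell type) of selected regulators, meiotic, RNA-binding, energy, cell cycle and early response genes in type B (blue) and pachytene (red); the grey area is at or under the floor of 50. Fhl4, Gtf2a1l, Tdrd6 and Ldhal6b lie to the right in pachytene, while Stra8, Dmrt1, Mcm2 and Fos lie to the left.

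RNA-binding and piRNA genes were among the groups with the most increases. The piRNA system guards germ cells against transposons, and translation repressors keep messages for later use. Here 29 of 51 members passed 2-fold upwards in pachytene and 12 downwards, and the median log2 ratio was 1.47. Ybx2 and Ybx3, cold-shock domain proteins that mask stored messages, gave 45.5 and 3829 (at least 76.5-fold) and 167 and 4873 (29.2-fold). Adad1, a double-stranded RNA-binding protein, gave 78.5 and 851, and Papolb, the testis poly(A) polymerase, 26.8 and 580. Ddx25, a helicase of the chromatoid body, gave 120 and 3073, although its other probe sets reached down to −0.27 in log2. The decreases were led by Elavl2, with 634 and 24.6, by Dazl, with 1741 and 214, and by X-linked Fmr1, with 339 and 24.3. The second probe set of Dazl gave only −0.48.

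Most genes for the sperm tail, and 18 of 34 for the acrosome, were higher in pachytene. Sperm tail and axoneme genes passed 2-fold upwards for 49 of 70 members and downwards for 1, and their median was 2.35. Acrosome genes passed it downwards for 1 member, and their median was 3.32. Of these lists 42 of 70 and 13 of 34 members were above the floor in type B, and a member at the floor there could only differ upwards. Rimbp3, a protein of the manchette, gave 10.2 in type B and 6224 in pachytene, at least 124-fold higher, and Catsper2, a pore subunit of the sperm calcium channel, 28.6 and 3386, at least 67.7-fold. Dnali1, a light intermediate chain of axonemal dynein, gave 4.7 and 2996, with 5.25 and 5.90 in log2 from its probe sets. X-linked Dynlt3, a light chain of cytoplasmic dynein, was the exception with 623 and 155.

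In the acrosome list Dkkl1, a secreted protein of the acrosome, gave 10.1 and 7557, at least 151-fold higher, and Crisp2 gave 3.7 and 3669, at least 73.3-fold. Acr, the protease acrosin, gave 30.3 and 1874 on 1 probe set and a log2 ratio of 0.73 on its other. Spaca4, a sperm membrane protein, was lower with 152 and 34.6. The signals of all 4 round spermatid markers named above were lower on the pachytene than on the round spermatid array, as given there, and the part of spermatids in these 2 lists was not tested. Proteins of spermatid chromatin and their kinases had 14 of 28 members higher and none lower, but 8 of 28 were above the floor in type B and could have been lower. They were led by the round spermatid marker Prm1, given above, with a log2 ratio of at least 4.72. Haspin, a histone H3 kinase, followed with 3.8 and 763.

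Energy genes differed by isoform. Glycolysis and its sperm isoforms held 49 genes, of which 17 passed 2-fold upwards in pachytene and 14 downwards. Slc2a3, a glucose transporter, gave 69.8 and 5344, or 76.6-fold, with 4.84 to 6.26 in log2 over its 3 probe sets, and Pgam2, the muscle form of phosphoglycerate mutase, gave 2.5 and 2133, at least 42.6-fold. Ldhb gave 261 and 94.4, so that of the lactate dehydrogenases Ldhc, Ldhal6b and Ldha were higher and Ldhb 2.77-fold lower; Ldha and Ldhb were chosen after their values were seen. Pgam1 gave 479 and 110, or 4.35-fold lower, and Hk1, the general hexokinase, 2290 and 516, or 4.44-fold lower. In the main setting the respiratory chain was mostly level, with 11 of 80 members higher and 4 lower. Its median log2 ratio of 0.25 was 0.77 with median scaling, 0.99 with spike-in scaling and 0.065 after quantile normalization. Ndufaf3, an assembly factor of complex I, gave 174 and 5340, or 30.7-fold, with 4.94 and 5.26 in log2 from its probe sets. The testis subunit Cox8c gave 272 and 20127, a log2 ratio of 6.21, and its other probe sets above the floor gave 3.97, 2.47 and −0.21. Of 3 X-linked members, Ndufb11 and Cox7b were at the floor in pachytene, from 259 and 242 in type B, while Ndufa1 gave 81.7 and 65.7.

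Protein folding and degradation genes also differed by isoform. Of 60 chaperones, 20 passed 2-fold upwards and 9 downwards. Hspa2, the HSP70 of spermatocytes that attends the synaptonemal complex, gave 479 and 12268, or 25.6-fold, and its probe sets gave 4.68 and 5.89 in log2. Dnajb3 gave 68.7 and 3244, or 47.2-fold. The mitochondrial pair Hspd1 and Hspe1 was lower, with 1242 and 152 (8.16-fold) and 909 and 109 (8.34-fold), although a second probe set of Hspd1 gave −0.04. Hspa8, the constitutive HSP70, gave 1971 and 441, or 4.47-fold lower, and Serpinh1, the collagen chaperone, 712 and 6.9. Of 39 proteasome subunits 4 were higher and 8 lower, against 13.2% and 17.9% of all genes. Psma8, the alpha subunit of the testis proteasome, gave 285 and 2068, or 7.25-fold higher, while its general counterpart Psma7 gave 558 and 123, or 4.54-fold lower.

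Signalling and degradation genes were divided in a similar way. Of 60 phosphatase and kinase genes 14 were higher and 16 lower, against 13.2% and 17.9% of all genes. Within calcineurin, the calcium-dependent phosphatase, the catalytic subunit Ppp3cc gave 98.8 in type B and 633 in pachytene (6.41-fold higher) and Ppp3ca 382 and 1658 (4.34-fold), while Ppp3cb gave 434 and 120 (3.63-fold lower) and the regulatory subunit Ppp3r1 330 and 97.1. The testis regulatory subunit Ppp3r2 gave 127 and 4120, with −0.58 on its other probe set. These 5 subunits were chosen after their values were seen. Of 54 ubiquitin genes 17 were higher and 13 lower. Usp2, a deubiquitinase, gave 143 and 1652, or 11.5-fold, with 3.37 and 3.53 in log2, and X-linked Usp26 and Huwe1 gave 1111 and 110 and 461 and 73.7.

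Lipid and redox genes had more decreases than increases, as did all genes, with 17.9% lower and 13.2% higher. In the lipid list 18 of 52 members passed 2-fold downwards and 9 upwards, and in the redox list 12 of 41 downwards and 5 upwards. Their medians of −0.45 and −0.56 turned to 0.05 and 0.21 with spike-in scaling. Cers3, a ceramide synthase for very long fatty acids, gave 12.5 and 4417, at least 88.3-fold higher, and Fabp9, the fatty acid binding protein of the sperm head, 7.5 and 4678, at least 93.5-fold. Scap, the sterol-sensing escort of the transcription factor SREBP, gave 1025 and 140, or 7.35-fold lower. Among antioxidant genes Gstm5 gave 1167 and 7713, or 6.61-fold higher, while Txn1, thioredoxin, gave 852 and 135 (6.33-fold lower) and X-linked Prdx4 791 and 82.9 (9.54-fold lower).

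Chromatin enzymes were mostly level, with 7 of 59 past 2-fold upwards and 16 downwards, against 13.2% and 17.9% of all genes. Their median of −0.49 turned to 0.27 with spike-in scaling. Phf7, a histone reader of male germ cells, gave 197 and 8677, or 44.2-fold higher, with its 4 probe sets between 1.37 and 5.46 in log2. Hells, a remodeller needed for DNA methylation, gave 645 and 66.4, or 9.72-fold lower, and the DNA methyltransferase Dnmt3a 345 and 34.9. In a separate list of 31 histone genes, variants and related genes, 3 passed 2-fold upwards, 3 downwards and 11 were at the floor in both. Its largest increase was H3c14, a histone H3 gene, with 193 and 2818, or 14.6-fold higher.

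**Figure D4:**
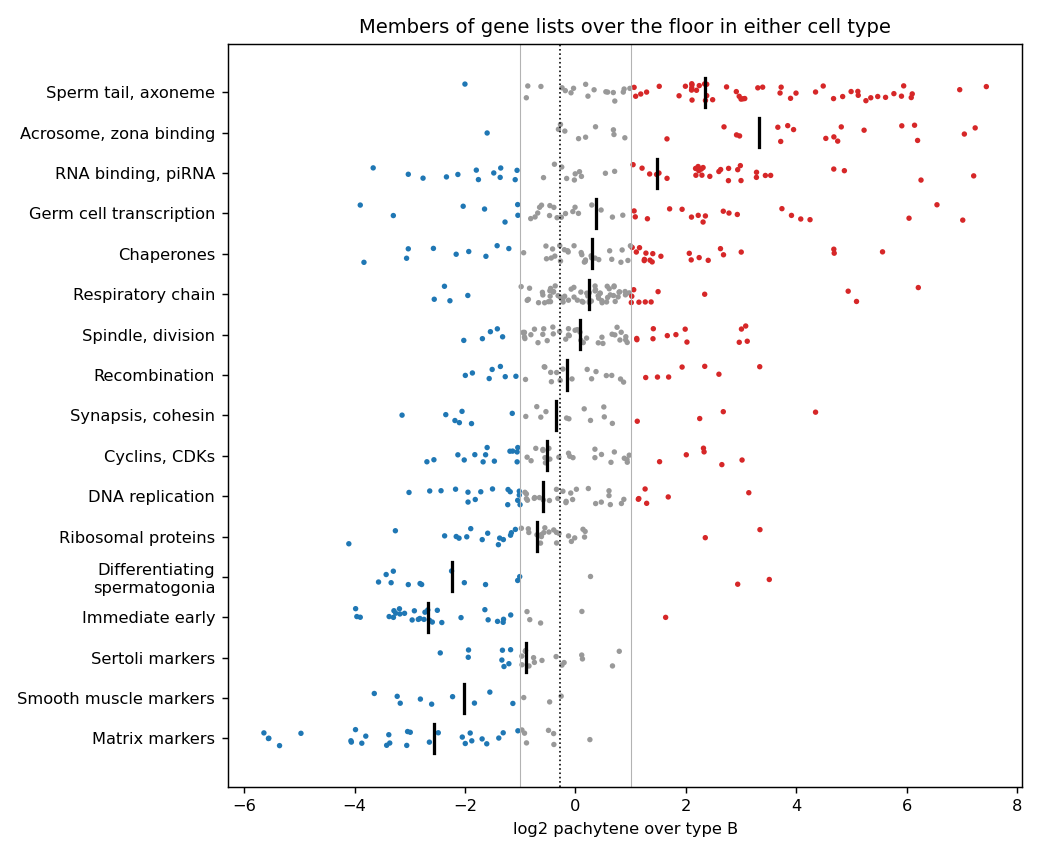
Log2 ratio of pachytene over type B (x axis) of the members of 17 gene lists above the floor in either cell type; each dot is a gene, red at least 2-fold higher and blue at least 2-fold lower, the black bars are list medians and the dotted line is the median of all genes above the floor, −0.28. Sperm tail, acrosome and RNA-binding lists have medians of 2.35, 3.32 and 1.47, and immediate early and matrix lists of −2.67 and −2.57.

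Genes of differentiating spermatogonia were mostly lower in pachytene, and those of undifferentiated spermatogonia were so in 9 of 24 cases. The list for differentiating spermatogonia held 19 genes, 12 of them past 2-fold downwards and 2 upwards, and its median was −2.24. The undifferentiated list had 1 member past 2-fold upwards and a median of −0.79. X-linked Rhox13, a homeobox gene of differentiating germ cells, gave 3308 and 279, or 11.8-fold lower, and Rarb, a retinoic acid receptor, 583 and 82.9 on 1 probe set and −0.43 in log2 on its other. Zbtb16 (PLZF), the stem cell repressor, gave 268 and 41.5 with −2.42 and −2.34 in log2 from its probe sets. Sall4, its partner, gave 647 and 96.8. Dmrtb1, which controls the switch from mitosis to meiosis, went against its list with 209 and 2376, or 11.4-fold higher, and Rbm44, a bridge protein of dividing germ cells, with 158 and 1207. Id4, a stem cell marker, gave 39.6 and 173, at least 3.46-fold higher.

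Immediate early and stress genes, which cells switch on within minutes of a stimulus, were mostly lower in pachytene. Of 35 members, 28 passed 2-fold downwards, 22 of these also 4-fold, and 1 passed 2-fold upwards; the median was −2.67. Nfkbia, the inhibitor of NF-kappa-B, gave 17482 in type B and 2609 in pachytene, or 6.70-fold lower, and was chosen after its values were seen. Fos gave 6364 and 613 (10.4-fold lower), Nr4a1 2109 and 136 (15.6-fold) and Gadd45b 1707 and 108 (15.8-fold). Junb and Klf6 were lower on both of their probe sets, at −3.29 to −4.48 and −3.14 to −3.26. Ddit3, a factor of the unfolded protein response, was the exception with 124 and 383. The summed signal of the list was 46297 in type A, 60515 in type B, 8932 in pachytene and 6754 in round spermatids, so both spermatogonial arrays stood above both later ones.

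The largest decreases were found in genes of connective tissue. Prss35, a secreted protease, gave 3777 and 43.1, at least 75.5-fold lower, and Dcn, given above, had a log2 ratio of −5.64. Bgn, a proteoglycan, gave 2362 and 12.9, at least 47.2-fold lower, with −5.56 to −2.23 in log2 over 3 probe sets. Of the 36 matrix markers 27 passed 2-fold downwards and none upwards, and of the 12 smooth muscle markers 9 and none. Adamts5 and Igfbp6, genes outside the marker lists, gave 1211 and 15.7, and 979 and 56.1, with other probe sets of Adamts5 reaching −0.63 in log2. Imprinted growth genes were in the same range, with 10 of 21 members past 2-fold downwards and none upwards. Dcn, a matrix marker, is counted in this list too and was its largest decrease. Plagl1 gave 2397 and 123 (19.6-fold), Dlk1 1876 and 104 (18.1-fold) and Igf2 1878 and 124 (15.2-fold). Among Sertoli markers 8 of 25 were lower, with Gata4 at 461 and 84.5, and among macrophage markers 8 of 19, with Laptm5 at 819 and 162.

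Ribosomal protein genes were lower for 15 of 43 members and higher for 2, and their median of −0.70 was −0.27 with median scaling, −0.56 after quantile normalization and −0.07 with spike-in scaling. Rps19 gave 3314 and 346, or 9.59-fold lower, and the probe sets of Rpl10a gave −2.37 and −2.35 in log2. The 2 increases were autosomal copies of X-linked ribosomal genes, Rpl10l with 585 and 5926 (10.1-fold) and Rpl39l with 365 and 1862 (5.10-fold). The medians of several large families lay near that of all genes, between −0.37 and −0.23, and all turned above 0 with spike-in scaling. Of 70 splicing factors 8 were higher and 10 lower, of 67 Rab genes 10 and 13, of 278 Zfp zinc finger genes 24 and 41 and of 310 solute carriers 29 and 52. Over all genes 13.2% were higher and 17.9% lower.

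X-linked genes stood apart from those of every autosome. The 368 X-linked genes above the floor in either cell type had a median log2 ratio of −1.05, while the medians of the 19 autosomes lay between −0.34 and −0.18. At least 2-fold lower were 196 X-linked genes (53.3%) against 22.3% of autosomal genes, with 19.3% to 25.1% on single autosomes. Past 2-fold upwards were 4 X-linked genes (1.09%), against 17.7% of autosomal genes. Of 355 X-linked genes above the floor in type B 166 (46.8%) were at the floor in pachytene, and on the autosomes this share was 13.9% to 22.9%.

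The difference was found in each bin of type B signal from 100 upwards. Between the floor and 100, with 98 X-linked genes, no gene can be 2-fold lower, and the share was 0% on the X and on the autosomes. Among X-linked genes with a type B signal of 100 to 200 the share that was at least 2-fold lower was 70.1%, and among those of 800 and over it was 95.2%. Autosomal genes of the same bins stood at 30.2% and 39.0%. None of the 355 X-linked genes above the floor in type B was 2-fold higher. The X median was −1.31 for genes on U74Av2, −1.05 on U74Bv2 and −0.52 on U74Cv2, against −0.22, −0.34 and −0.21 for autosomal genes, and the distance was smallest on U74Cv2. Leaving out the somatic marker genes kept 363 of the 368 X-linked genes and gave −1.05. The distance between X and autosomes was −0.79 with all genes and −0.80 without the markers. So few X-linked genes were left out that the median could hardly move, and the part of somatic cells in this difference was not tested.

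**Figure D5:**
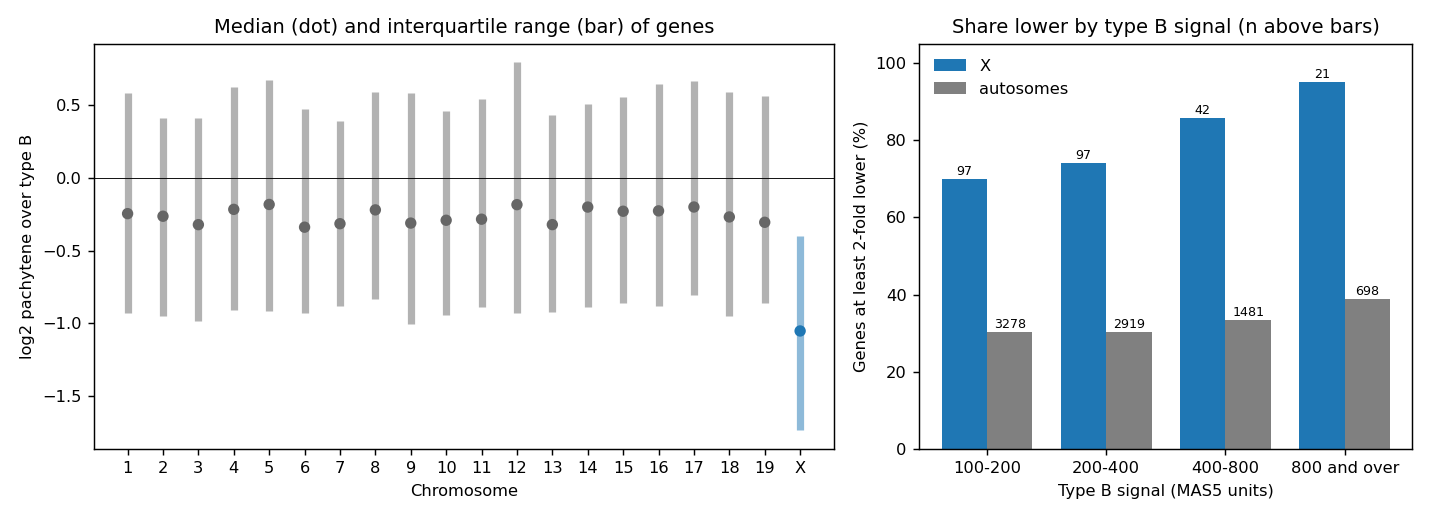
Left, median (dot) and interquartile range (bar) of the log2 ratio of pachytene over type B (y axis) by chromosome (x axis) for genes above the floor in either cell type. Right, percent of genes at least 2-fold lower in pachytene (y axis) by type B signal in MAS5 units (x axis) for X-linked (blue) and autosomal (grey) genes, with the number of genes above each bar; the X median of −1.05 lies under all autosomal medians, and the X-linked bars go from 70.1% to 95.2% against 30.2% to 39.0%.

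Named X-linked genes show the range. Rps4x, a ribosomal protein, gave 3875 in type B and 225 in pachytene, or 17.2-fold lower, on 1 of 2 probe sets above the floor, and 0.07 in log2 on the other. Itm2a, a membrane protein, gave 807 and 23.7, Gpc3, a glypican of the cell surface, 551 and 51.8, and Vbp1, a prefoldin subunit, 514 and 32.8. Among these Bgn and Gpc3 are also genes of connective tissue or of growing mesenchyme. The 4 increases were Tsga8, a chromatin protein of spermatids, with 20.4 and 498, Tsx with 14.9 and 165, 1700018G05Rik with 37.7 and 139 and Chst7, a sulfotransferase, with 16.9 and 120. All 4 were at the floor in type B, and Tsga8 gave 17452 on the round spermatid array.

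The Y chromosome had few genes to compare. Of 7 Y-linked genes 4 were above the floor in either cell type, and 3 of them were at least 2-fold lower. Eif2s3y, a translation factor, gave 174 in type B and 19.2 in pachytene, Uba1y, a ubiquitin-activating enzyme, 188 and 30.8, and Kdm5d, a histone demethylase, 109 and 16.4. Kdm5d and the others were named since the chromosome held so few genes, after their values were seen. All 3 were at the floor in pachytene.

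Most autosomal retrogenes of X-linked parents were higher in pachytene, and 5 of 10 X-linked parent genes on the arrays were lower. Retrogenes are intronless copies made from the message of a parent gene, and copies of X-linked housekeeping genes are known to be used in germ cells. From 10 retrogenes on the arrays, 7 passed 2-fold upwards and none downwards, against 13.2% and 17.9% of all genes. Only 5 of the 10 were above the floor in type B and could have been lower. No parent passed 2-fold upwards. The lists of retrogenes and parents do not match gene by gene. Utp14a, Zfx and Tktl1 in the parent list have no copy among these retrogenes, and Tktl1 was among the lower parents. Of the X-linked genes above the floor, 53.3% passed 2-fold downwards and 1.09% upwards, so the count of parents is near that of X-linked genes in general. Pdha2, of pyruvate dehydrogenase, gave 67.7 and 1955 (28.9-fold higher) while its parent Pdha1 gave 203 in type B and was at the floor in pachytene (at least 4.05-fold lower). Pgk2, of phosphoglycerate kinase, gave 3.8 and 333 (at least 6.66-fold higher) and Pgk1 158 and 43.9 (at least 3.17-fold lower). Fam50b gave 20.3 and 1105 (at least 22.1-fold higher) and Fam50a 162 and 21.2. For each of these 3 pairs the pachytene array carried a signal for the retrogene and none above the floor for its parent. Signals of 2 probe sets are not comparable in level, so these values say nothing of which copy gave more message.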

How the data were processed

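RNA of 1 preparation per cell type was hybridised to each of 3 array designs, and the deposited intensity values are MAS5 signals on a linear scale, per the submitters' processing notes; the sources used here name no MAS5 version, and no detection calls were used. Within a design the arrays were brought to 1 trimmed mean (2% off each end) near 125. Signals were floored at 0.4 times it, and log2 ratios were taken within a design. A gene was read from the probe set with the highest mean over the 4 cell types. Probe sets were named through RefSeq, 29044 of 29131 with 1 symbol; 724 with several and 6846 with none stayed out of gene counts. Python 3.11.15, numpy 2.4.6, pandas 2.3.3 and matplotlib 3.10.9 were used, and the scripts were checked on simulated data. No p-value was computed. Genes named are the 10 with the largest ratio or bound in each direction, the 10 with all probe sets past 4-fold, the 6 most extreme X-linked, up to 6 per list and direction, members against their list, and label markers, others as stated. Members and lists were chosen with earlier results of these data known. Alternatives covered scaling, floor, probe set choice, threshold and design.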

Additional observations from a re-analysis of the deposited data

How the results depend on the processing

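No paired analysis was possible because each cell type had 1 array per design. The count of 970 higher genes became 1543 with spike-in scaling, 331 on U74Av2 alone, 2105 at 2-fold and 479 at 8-fold, and that of 1438 higher probe sets became 2293 with spike-in scaling, 2466 without a floor and 415 on U74Av2 alone. The count of 668 lower genes became 339 with median scaling, 242 with spike-in scaling, 1798 without a floor, 327 with the floor doubled, 335 with the mean log2 ratio over probe sets, 347 on U74Av2 alone, 2854 at 2-fold and 138 at 8-fold. The 984 lower probe sets became 505, 339, 4552, 445 and 431 with median scaling, spike-in scaling, no floor, a doubled floor and U74Av2 alone. U74Av2 alone holds fewer features, and increases made up 48.8% of its 4-fold differences against 59.2% in the main setting. The causes of these changes in counts were not tested. The median of all genes moved by 0.47 (log2) with median scaling and by 0.63 with spike-in scaling. The X median minus the autosomal median, −0.793, was −0.492 with the mean ratio over probe sets, −1.049 on U74Av2 alone and −0.305 for genes of U74Cv2; it stayed between −0.990 and −0.712 under the other alternatives run. A turn of sign was counted gene by gene only for label markers, list members and other named genes past 4-fold in the main setting. Signs turned for 8 of these: gene Apoe to 2.421 (median scaling) and 2.759 (spike-in scaling), gene C1qc to 0.067 (spike-in scaling), gene Eif4e2 to −0.963 (quantile normalization) and −0.065 (U74Av2 alone), gene Txnrd3 to −0.470 (U74Av2 alone), gene Dazap1 to −0.627 and gene Slc25a53 to 0.042 (both without special probe set endings and on U74Av2 alone), and gene Prdx2 to 0.078 and gene Prps1l1 to −0.036 (without those endings). Turns of sign among smaller ratios were not counted. Among all 4-fold genes, opposite signs were found for 7 higher and 7 lower without special endings, 7 and 5 on U74Av2 alone, 3 and 2 with the mean ratio, 2 lower each with median and spike-in scaling, 2 higher with the probe set highest in either cell type, and 1 higher after quantile normalization. Signals near the negative controls limit every ratio against a dim array, and single arrays leave the spread between preparations unknown.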
